A study of Mus musculus with 6 samples.

Results

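Primary cultures of mouse cortical and hippocampal neurons at 14 days in vitro (DIV14) were described here at baseline, in the 3 libraries of the shCtrl condition out of 6 libraries in the series. The members were chosen by their treatment label alone, and no comparison with the knockdown cultures was made. The cultures came from wild type C57BL/6N embryos at E18 and were plated on laminin and poly-D-lysine. At DIV4 they received a lentivirus expressing a control or scrambled shRNA, from a plasmid that also carries an EGFP reporter, at the amount of virus used for the knockdown. The basal condition is therefore that of transduced cultures, and no untransduced culture was among the samples. Cells were collected at DIV14, and poly(A) RNA was sequenced with a stranded kit. There were 3 samples per treatment, but the labels do not say whether they were separate cultures or embryos, so the spread between libraries may be partly technical.

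Levels are given in TPM, the reads of a gene divided by its exon length and scaled to the same total in each library, so that genes can be compared with each other. Of 55357 genes in the files, 15687 had 10 or more reads in each shCtrl library, and these are the genes whose spread is described. Between 20387986 and 22561667 reads were counted per library. Spread is given as the SD over the 3 libraries, as the coefficient of variation (CV, the SD as a percentage of the mean), or as the fold between the highest and the lowest library. Of these genes 33.2%, 31.9% and 34.9% were highest in replicates 1, 2 and 3, and 36.2%, 25.2% and 38.6% were lowest there, and counts of genes by direction stand beside these shares as background. A gene is called the highest or the lowest of a list by its mean. Reads that map to several places were not counted and strand was not used, so a level is uncertain where 10% or more of a gene's 50-base stretches occur in another gene or of its exon bases overlap one. Besides the genes for which this is said below, stretches are shared for *Calm2*, *Glul*, *Grin2a*, *Tuba1c*, *Actb*, *Tmsb10*, *Aldoa*, *Gapdh*, *Ldha*, *Hspa1a*, *Hspa1b*, *Oas1a*, *H2afz*, *Hist1h3a*, *Ywhaz*, *Ubb*, *Ppia*, *Pgk1*, *Rps18*, *Rpl13a* and *Cnn3*. Exons of *Mir22hg*, *Rmst*, *Uchl1*, *Nefm*, *Cnp*, *Grin3b*, *Kctd16*, *Syp*, *Homer3*, *Hcn3*, *Bdnf*, *Penk*, *Gde1*, *Hmgcs1*, *Ptbp1*, *Xist*, *Tbp*, *Suv39h1* and *Wdr3* overlap another gene.

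A culture of this kind holds pyramidal neurons that use glutamate, a smaller population of inhibitory interneurons that use GABA, and glial cells that divide or mature beneath them. In the second week in vitro, axons and dendrites have formed and synapses are being assembled, and subunits of receptors, chloride carriers and cytoskeletal proteins are exchanged for their mature forms. Neuronal RNA also includes abundant noncoding transcripts, some of which are transported into dendrites, and microRNAs, short RNAs that bind messenger RNAs through a seed of 7 bases near their 5′ end.

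The sequences below are those of an abundant noncoding RNA, of microRNAs known from neural cells, and of promoters of genes described further on. *Bc1* is a small noncoding RNA made in neurons and carried to dendrites, where it acts on translation. By its mean it was the most abundant noncoding gene with a symbol, but *mt-Rnr2* and *mt-Rnr1* were above it in replicates 2 and 3. The *Bc1* transcript of 168 bases was read from GENCODE vM21. The capitals mark its longest run of A, 23 bases from position 77 to position 99, ahead of a stretch that is also rich in A. Of its 50-base stretches 31.1% occur in other genes, so that its level is uncertain.
*Bc1*: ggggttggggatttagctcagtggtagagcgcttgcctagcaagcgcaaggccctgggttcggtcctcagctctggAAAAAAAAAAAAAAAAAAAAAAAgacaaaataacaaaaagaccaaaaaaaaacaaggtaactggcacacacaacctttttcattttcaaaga

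The microRNA genes *Mir212* and *Mir132* lie next to each other on chromosome 11 and are known as activity-regulated microRNAs of neurons. The host transcript *Mir9-3hg* carries miR-9, a microRNA of neural progenitors and neurons, and *Mir22hg* carries miR-22. The mature sequences below are those of RefSeq (GRCm38.p6), with the seed, bases 2 to 8, in capitals.
miR-212-3p: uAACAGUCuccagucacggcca
miR-132-3p: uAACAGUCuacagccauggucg
miR-9-5p: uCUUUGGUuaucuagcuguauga
miR-22-3p: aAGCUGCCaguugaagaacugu
The first 2 share the seed AACAGUC, and the other two have seeds of their own. Poly(A) libraries count the precursor transcripts of these genes and not the mature microRNAs. *Mir9-3hg* had 70.5, 76.1 and 80.7 TPM in replicates 1, 2 and 3, and *Mir22hg* had 68.6, 59.8 and 76.2 TPM. *Mir132* stood on only 14, 18 and 17 reads, or 41.7, 56.7 and 46.7 TPM, and *Mir212* on 32, 13 and 17 reads, or 69.1, 29.7 and 33.9 TPM. For these very short genes a few reads make a high TPM, and *Mir212* was above *Mir132* in replicate 1 only. *Mir124a-1hg*, the host of miR-124, a microRNA of neurons, reached 185, 206 and 257 TPM. Apart from *Mir212*, these genes were picked with their values known.

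The cultures transcribed a broad set of genes. A mean of 1 TPM or more was reached by 17815 genes, 10 TPM by 10669, 100 TPM by 2077 and 1000 TPM by 56. The median of the 15687 genes was 22.1 TPM, with quartiles of 6.45 and 56.5 TPM. The 961 most abundant genes held 50% of the mean TPM and 6833 genes held 90%. In replicates 1, 2 and 3, the 10 highest genes of each library took 10.4%, 10.3% and 12.2% of its TPM, most of it from the mitochondrial chromosome. Protein-coding genes of the nucleus, 13657 of the 15687, held a mean of 84.4% of the TPM, and the 21 genes of the mitochondrial chromosome that passed, coding and noncoding, held 10.8%. The 1679 nuclear noncoding genes other than pseudogenes held 2.47%, and 300 pseudogenes held 0.514%.

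**Figure D1:**
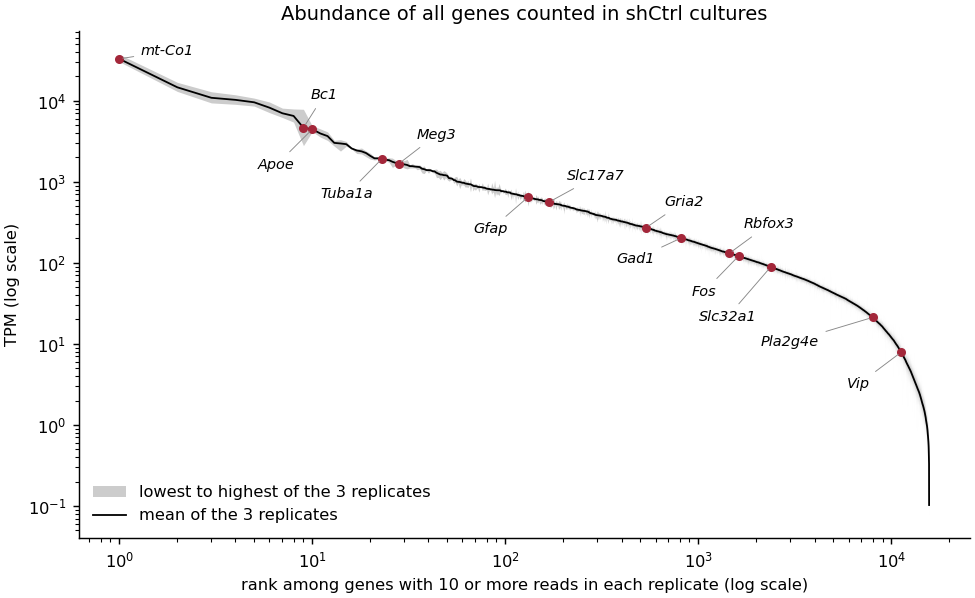
Mean TPM (black line, log scale) of the 15687 genes with 10 or more reads in each shCtrl replicate against their rank (log scale), with the lowest to the highest replicate in grey and named genes as red points. The line falls from *mt-Co1* at 32889.8 ± 3962 TPM through *Slc17a7* at 565 ± 70.7 TPM to *Pla2g4e* at 21.2 ± 0.754 TPM, and the grey band is wide at *Bc1*.

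Genes of the mitochondrial genome led the transcriptome. *mt-Co1*, a subunit of cytochrome c oxidase, had 30902, 30315 and 37452 TPM in replicates 1, 2 and 3. *mt-Cytb*, of the cytochrome bc1 complex, had 13022, 14052 and 16867 TPM. The complex I subunits *mt-Nd1*, *mt-Nd6*, *mt-Nd5*, *mt-Nd2* and *mt-Nd4* followed, with means of 10878, 10258, 9568, 8216 and 7008 TPM. All 7 of these were highest in replicate 3 (background 34.9%), and replicates 1 and 2 lay closer to each other. The ribosomal RNAs *mt-Rnr2* and *mt-Rnr1* had means of 3950.3 and 3664 TPM. The mitochondrial chromosome as a whole took 9.79%, 10.3% and 12.5% of the TPM in replicates 1, 2 and 3, and 2.75%, 2.89% and 3.62% of the reads. The 6 remaining protein genes of the mitochondrial genome were counted at almost nothing: *mt-Co3* had 6.47 ± 1.1 TPM and *mt-Nd3* 0.362 ± 0.314 TPM. Counting left out reads that map to several places, and 99.9% of the 50-base stretches of *mt-Co3* and 98% of those of *mt-Nd3* occur in other genes, so the level of these genes cannot be read from the counts. For *mt-Co1* and *mt-Nd4* the shares were 51.1% and 62.2%, which makes their levels uncertain too. *mt-Nd6* lies on the minus strand, unlike the other complex I subunits named here. Strand was not used in counting, so reads from the opposite strand count toward *mt-Nd6*, and its level is uncertain as well.

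Among nuclear genes, the highest were of mixed cellular origin. ENSMUSG00000119584 on chromosome 17 had 7921, 6121 and 5448 TPM. It had no match in the table of names, so its identity and cell of origin are not known here. The share of its 50-base stretches found in other genes could not be measured, which leaves its level uncertain. *Bc1* had 7846, 3291 and 2793 TPM on 6710, 2660 and 2586 reads, so that replicate 1 held 2.81 times the level of replicate 3 while replicates 2 and 3 lay close together. Its rank of 9 therefore rests largely on replicate 1, and 31.1% of the 50-base stretches of its transcript occur in other genes. *Apoe*, the lipid carrier that astrocytes secrete, had 4315, 4159 and 4886 TPM, the highest level of a nuclear protein-coding gene. *Cst3*, which encodes the secreted protease inhibitor cystatin C, had 2971 ± 503 TPM. *Eef1a1*, a translation elongation factor, had 3019 ± 248 TPM, with 59.2% of its 50-base stretches shared with other genes. *Selenow*, a small selenoprotein, had 2912 ± 205 TPM. *Calm2* and *Calm3*, both encoding calmodulin, had 2579 ± 46 and 2434 ± 173 TPM, and *Calm2* kept within a CV of 1.78%. *Cpe*, the carboxypeptidase that processes peptide hormones in secretory granules, had 2376 ± 209.8 TPM. *Rplp1*, a protein of the ribosomal stalk, had 2263 ± 196 TPM, with 60% of its stretches shared. *Nrgn*, the postsynaptic calmodulin-binding protein neurogranin, closed the first 20 at 2084 ± 172 TPM. Neuronal and astrocytic transcripts thus stood side by side at the top of the list.

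Some noncoding transcripts were abundant, although nuclear noncoding genes other than pseudogenes held a mean of 2.47% of the TPM. *Meg3*, an imprinted long noncoding RNA, had 1494, 1673 and 1821 TPM, and all 3 libraries lay within 1.22-fold. *Snhg11* had 854 ± 107 TPM and *Malat1*, a nuclear RNA found in most cell types, 657 ± 120.5 TPM. *Rian* and *Mirg*, expressed from the same imprinted region as *Meg3*, had 117 ± 11.4 and 19.1 ± 1.96 TPM. At the low end of the list of 20 noncoding RNAs stood *Rmst*, with 1.45 ± 0.438 TPM. The short gene *Mir6236* was listed at 1045 ± 94 TPM and *Gm10736* at 940.2 ± 97.8 TPM. All 50-base stretches of *Gm10736* occur in other genes, so its level is uncertain. Of the 19 members that had 10 or more reads in each library, 14 were highest in replicate 3 (background 34.9%) and 15 were lowest in replicate 1 (background 36.2%).

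The label "neurons" was set beside marker lists, which were chosen with earlier results of these data known and are no independent check. All 15 pan-neuronal markers were found at 10 TPM or more, and 13 of them at 100 TPM or more. *Gap43*, a growth cone protein, had 1561 ± 72.4 TPM, *Uchl1*, a neuronal ubiquitin hydrolase, 1093 ± 27.7 TPM, and *Tubb3*, neuronal beta tubulin, 665 ± 87.4 TPM. *Nefm*, the medium neurofilament, was the lowest of the list at 33.3 ± 3.78 TPM. *Rbfox3*, which encodes the nuclear protein NeuN, had 143, 130.4 and 118 TPM in replicates 1, 2 and 3. The list summed to 7253, 7105 and 6652 TPM, and no member differed by more than 1.5-fold between libraries. Over all genes with 10 or more reads in each library, 16.8% did so, and 3.88% of those with a mean of 10 TPM or more.

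The cultures also held a large astrocyte transcriptome. All 20 astrocyte markers passed the minimum of 10 reads, 18 of them at 10 TPM or more, and their sum of 9313, 9709.98 and 11291 TPM in replicates 1, 2 and 3 was above the pan-neuronal sum in each library. Sums of lists depend on which genes they hold and do not give cell numbers, and in RNA from whole cultures fewer cells of a type and less RNA per cell cannot be told apart. *Apoe* made up a large part of this sum, followed by *Sparcl1*, a secreted matricellular protein, with 971 ± 109 TPM and *Glul*, the glutamine synthetase of astrocytes, with 805 ± 151 TPM. *Gfap*, their intermediate filament, had 499, 660.2 and 777 TPM in replicates 1, 2 and 3. The glutamate carriers *Slc1a2* and *Slc1a3* had 411 ± 21.4 and 281 ± 59.6 TPM, and the water channel *Aqp4* had 97.1 ± 21.6 TPM. *Aldh1l1*, an astrocyte enzyme of folate metabolism, had 78.2 ± 2.02 TPM, with 11% of its exon bases overlapping a gene on the other strand. The connexin *Gjb6* was lowest, with 2.79 ± 0.797 TPM. Of the 20 markers 7 differed by more than 1.5-fold between libraries (background 16.8%), and of the 18 at 10 TPM or more 5 did (background 3.88%). Highest in replicate 3 were 16 of the 20 (background 34.9%), and lowest in replicate 1 were 14 (background 36.2%).

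**Figure D2:**
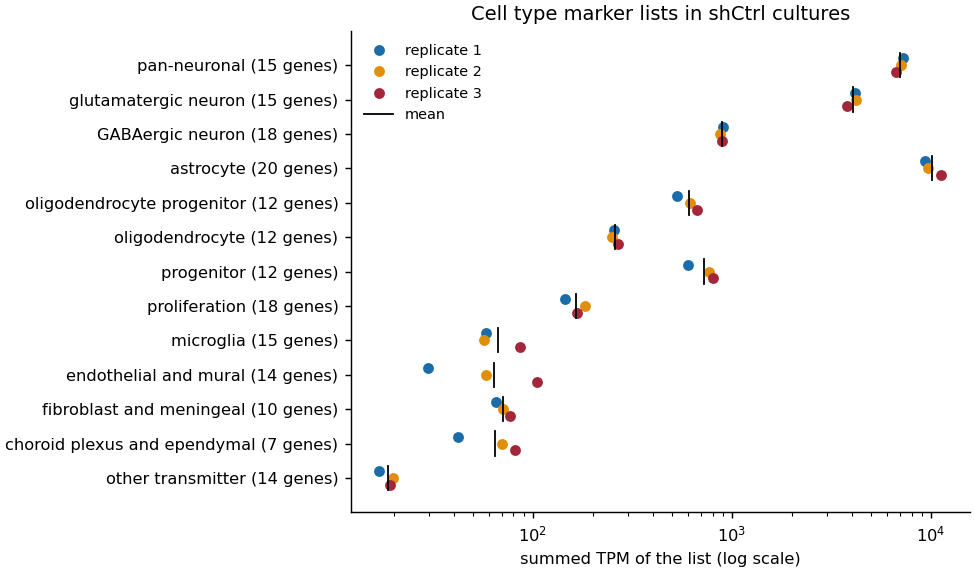
Summed TPM (log scale) of 13 cell type marker lists in shCtrl replicates 1 (blue), 2 (orange) and 3 (red), with the mean as a black line. The astrocyte list lies between 9313 and 11291 TPM and the pan-neuronal list between 6652 and 7253 TPM, while the lists of microglia, vessels, meninges and choroid plexus stay near or below 100 TPM.

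Genes of the oligodendrocyte lineage were present, those of progenitors above those of myelin. The 12 markers of oligodendrocyte progenitors summed to 532, 619 and 669 TPM. *Ptprz1*, a receptor phosphatase, had 142 ± 14.3 TPM, the transcription factor *Olig1* 137 ± 14.7 TPM and *Olig2* 80.3 ± 17.2 TPM, and *Neu4* was lowest at 0.699 ± 0.352 TPM. *Pdgfra*, the growth factor receptor that defines these cells, had 45.5, 46.8 and 52.8 TPM in replicates 1, 2 and 3. Of the 12, 9 were highest in replicate 3 (background 34.9%) and 9 were lowest in replicate 1 (background 36.2%). Of the same 12, 5 differed by more than 1.5-fold (background 16.8%), as did 3 of the 10 at 10 TPM or more (background 3.88%). The markers of mature oligodendrocytes were lower, with a sum of 255, 249 and 269 TPM in the same order. The myelin proteins *Mbp* and *Cnp* had 71.1 ± 1.57 and 53.2 ± 7.92 TPM. *Opalin*, which marks fully differentiated oligodendrocytes, had 0.0411 ± 0.0711 TPM, and *Mobp* 0.48 ± 0.255 TPM, both below the minimum of 10 reads.

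Progenitor markers were present as well. *Vim*, an intermediate filament of radial glia and astrocytes, had 239 ± 45.3 TPM, the fatty-acid-binding protein *Fabp7* 195 ± 31.1 TPM and the stem cell factor *Sox2* 125 ± 15.3 TPM. *Eomes*, the factor of intermediate neuronal progenitors, had 0.916 ± 0.197 TPM. The list summed to 603, 768 and 806 TPM, and 10 of its 12 members were lowest in replicate 1 (background 36.2%). Genes of the cell cycle were low, and 2 of 18 reached 10 TPM. *Pcna*, the sliding clamp of DNA replication, had 62.3 ± 5.05 TPM, with 31.8% of its 50-base stretches shared with other genes, *Mcm6* and *Mcm3* of the replicative helicase had 22.7 ± 1.56 and 9.75 ± 0.47 TPM, and the mitotic kinase *Bub1* was lowest at 1.17 ± 0.275 TPM. Of the 18 genes 13 were highest in replicate 2 (background 31.9%) and 14 were lowest in replicate 1 (background 36.2%), and 9 differed by more than 1.5-fold, where low read numbers widen the spread of all genes (over all genes, 57.2% of those of 1 to 3 TPM and 32.6% of those of 3 to 10 TPM).

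Other cell types left few traces. Of 15 microglial markers 9 passed the minimum, and their list summed to 58.1, 56.6 and 86 TPM. Other cells also express some genes of this list, so that the sum is not that of microglia alone. The complement gene *C1qa* had 6.04, 3.6 and 12.6 TPM in replicates 1, 2 and 3. Its partner *C1qb* had 2.17, 5.73 and 6.67 TPM, and both were highest in replicate 3. The more specific markers *Tmem119* and *P2ry12* had 0.0566 ± 0.098 and 0.505 ± 0.156 TPM, and *Siglech* had no read. All 9 members that passed were highest in replicate 3 (background 34.9%). Of these, 7 differed by more than 1.5-fold. All but 1 of the 9 were below 10 TPM, where the background was 57.2% at 1 to 3 TPM and 32.6% at 3 to 10 TPM. In the endothelial and mural list, *Acta2*, smooth muscle actin, was the highest gene of a list that summed to 29.8, 58.4 and 105 TPM, and *Pdgfrb*, a receptor of pericytes, had 12.5 ± 1.34 TPM. The tight junction gene *Cldn5* of endothelium had no read in any library, and *Rgs5* had 2.63 ± 0.376 TPM. Among fibroblast markers *Dcn* had 12.6 ± 1.89 TPM, *Ogn* 5.56 ± 3.95 TPM and *Aldh1a2* 0.0612 ± 0.106 TPM. *Foxj1*, the factor of ciliated cells, had 37.8 ± 7.59 TPM, *Ttr*, the thyroid hormone carrier of the choroid plexus, 5.3, 21.4 and 17.7 TPM, and *Tmem212* 8.13 ± 4.62 TPM. Of 6 haemoglobin genes 5 had no read.

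Glutamatergic markers were those of the forebrain. The list of 15 glutamatergic markers summed to 4158, 4219 and 3778 TPM. *Slc17a7*, the vesicular glutamate transporter VGLUT1 of cortex and hippocampus, had 633, 569.9 and 491 TPM in replicates 1, 2 and 3. *Slc17a6*, which encodes VGLUT2, a form of young and of subcortical neurons, had 43.1, 39.2 and 25.1 TPM, and *Slc17a8*, VGLUT3, 1.04, 1.63 and 1.38 TPM. VGLUT1 thus made up 93.9% ± 0.868 of the TPM of the family. *Camk2a*, a kinase of excitatory synapses, had 576 ± 53.3 TPM. The ratio of *Slc17a7* to *Slc17a6* was 14.7, 14.5 and 19.6 in replicates 1, 2 and 3, highest in replicate 3, where both genes were at their lowest.

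Layer and area factors showed a mixture. Of 18 factors of cortical layers all were detected and 15 were at 10 TPM or more. *Lmo4*, a cofactor of upper layers and of several other cells, was highest with 317 ± 14.9 TPM, followed by *Lhx2* with 77.1 ± 3.53 and *Pou3f3* with 72.5 ± 1.27 TPM. For the deep layers, *Tbr1* had 32 ± 6.38 TPM, *Fezf2* 26.1 ± 5.1 TPM and *Bcl11b*, which encodes CTIP2, 21.2 ± 1.7 TPM. For upper layers, *Cux2* had 30.9 ± 1.69 TPM and *Cux1* 22 ± 0.901 TPM. *Foxp2* was lowest, with 1.85 ± 0.352 TPM. The deep-layer *Tbr1*, *Fezf2* and *Bcl11b* thus had levels close to those of the upper-layer *Cux1* and *Cux2*. *Lmo4*, *Lhx2* and *Pou3f3* were above them and *Foxp2* was below. No member differed by more than 1.5-fold (background 16.8%, and 3.88% at 10 TPM or more).

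Genes known from hippocampal fields were present at lower levels. *Mef2c*, which cortical neurons also express, had 277 ± 40.8 TPM, *Ociad2* 77.5 ± 0.994 TPM and *Calb1*, the calcium buffer calbindin, 61.7 ± 11.8 TPM. The CA1 markers *Wfs1* and *Fibcd1* had 61.4 ± 9.92 and 16.3 ± 2.49 TPM, and *Grik4*, a kainate receptor subunit of CA3, had 21.4 ± 2.65 TPM. *Prox1*, the factor of dentate granule cells and of some interneurons, had 5.9 ± 0.495 TPM, and *Lct* was lowest with 0.102 ± 0.0713 TPM. Apart from *Mef2c*, none of the 15 genes of this list reached 100 TPM.

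Markers of inhibitory neurons were lower in sum than those of glutamatergic neurons. *Gad1*, which encodes an enzyme that makes GABA, had 203, 193 and 212 TPM in replicates 1, 2 and 3. *Gad2*, the second such enzyme, had 138, 126 and 136 TPM, lower than *Gad1* in each library. *Slc32a1*, the vesicular GABA transporter VGAT, had 92.6, 85.7 and 88.4 TPM, with 24.9% of its exon bases overlapping a gene on the other strand. The summed VGLUT transcripts exceeded those of VGAT 7.31, 7.12 and 5.86-fold in replicates 1, 2 and 3, a mean of 6.76 ± 0.791 (SD, n = 3). Without division by exon length the mean ratio of reads was 13.0. The ratio was lowest in replicate 3, the library with the least *Slc17a7* and *Slc17a6*, while *Slc32a1* there lay between its levels in the other two. The list of 18 GABAergic markers summed to 899, 874 and 897 TPM, with no member that passed the minimum over 1.5-fold (background 16.8%, and 3.88% at 10 TPM or more). Factors of both main sources of cortical interneurons were found: *Lhx6* of the medial eminence had 22.9 ± 1.69 TPM and *Adarb2* of the caudal eminence 20.9 ± 1.87 TPM. *Dlx1* had 67.5 ± 5.36 TPM and *Dlx2* 19 ± 1.004 TPM, whereas *Nkx2-1*, which is shut off in migrating cortical interneurons, had 0.678 ± 0.21 TPM.

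Interneuron subclasses differed widely in level. *Sst*, somatostatin, had 543, 444 and 534 TPM in replicates 1, 2 and 3. *Cck*, which pyramidal neurons also express, had 428, 467 and 434 TPM, above *Sst* in replicate 2 only. *Cnr1*, the cannabinoid receptor of CCK interneurons, had 214 ± 29.3 TPM. *Npy*, neuropeptide Y, had 183 ± 21.6 TPM, *Calb2*, calretinin, 77.3 ± 2.23 TPM, and *Reln*, reelin, 44 ± 3.28 TPM. *Vip* had 9.64, 4.03 and 10.03 TPM, with replicates that differed by more than 1.5-fold. *Pvalb*, parvalbumin, which appears late in the development of its cells, had 14, 9 and 11 reads, or 2.64, 1.8 and 1.92 TPM, and was the lowest of the 18. Other transmitter systems were close to nothing, with a summed 16.9, 19.8 and 19.3 TPM for 14 genes. *Th*, tyrosine hydroxylase, had 7.76 ± 1.16 TPM, the vesicular monoamine transporter *Slc18a2* 5.12 ± 0.432 TPM and *Dbh* 1.42 ± 0.58 TPM, while the noradrenaline transporter *Slc6a2* had 0.0208 ± 0.0361 TPM. None of the 14 reached 10 TPM.

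Several pairs of genes exchange during maturation, and their balance at DIV14 was read within each library. Among the GluN2 subunits of the NMDA receptor, *Grin2b*, the form of young neurons, had 152, 144 and 109 TPM in replicates 1, 2 and 3, and *Grin2a*, which rises as synapses mature, had 22, 22.6 and 20.3 TPM. *Grin2b* made up 78, 76.5 and 74.3% of the GluN2 TPM, a mean of 76.2% ± 1.86 (SD, n = 3). The young subunit thus prevailed in each library, least so in replicate 3. *Slc12a5*, the chloride exporter KCC2 of mature neurons, had 167, 160.5 and 141 TPM, and *Slc12a2*, the importer NKCC1 of young neurons and glia, had 24.6, 24.2 and 28.1 TPM. Their ratio was 6.79, 6.62 and 5.02, a mean of 6.14 ± 0.976 (SD, n = 3), so that the mature carrier prevailed.

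Further markers of both stages stood together. The list of 20 genes of young neurons summed to 10849, 11255 and 10072 TPM and that of 20 genes of mature neurons to 6498, 6344 and 5761 TPM. The growth-associated genes *Tuba1a*, *Gap43* and *Marcksl1* led the first list, with 1932 ± 97.9, 1561 ± 72.4 and 1391 ± 103 TPM. *Dcx*, doublecortin, of migrating and outgrowing neurons, had 109.9 ± 9.97 TPM, *Sox11*, a factor of young neurons, 39.7 ± 0.106 TPM, and *Igfbpl1* was lowest with 9.7 ± 4.35 TPM. In the second list *Nrgn* was the highest, and *Camk2a* was among those that followed. *Nefh*, the heavy neurofilament, had 12 ± 1.69 TPM, and *Syt2*, of fast synapses, 1.72 ± 0.241 TPM. Among sodium channels, *Scn2a* of young axons held 43.2% ± 2.33 of the TPM of 5 alpha subunits, *Scn8a*, which replaces it at mature nodes, 27.2% ± 0.535, *Scn1a* 16.3% ± 1.94 and the embryonic *Scn3a* 13.2% ± 0.532. Young and mature forms of channels and receptors were thus present together.

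Glutamate receptors were led by the AMPA subunits. *Gria2*, which makes the receptor impermeable to calcium, had 268, 258 and 286 TPM and *Gria1* 254, 239 and 238 TPM, while *Gria4* and *Gria3* had 76.3 ± 3.06 and 54.8 ± 1.61 TPM. *Gria2* was above *Gria1* in each library, while the lowest value of the one, 258 TPM, was close to the highest of the other, 254 TPM. The family kept its composition, with *Gria2* at 41.2, 41.1 and 43.5% of the GluA TPM in replicates 1, 2 and 3. Of its auxiliary subunits all 12 were at 10 TPM or more, and *Cnih2*, a cornichon protein that slows receptor closure, was highest with 504 ± 16.5 TPM. *Cacng7* had 245 ± 9.96 TPM, *Cnih3* 174 ± 15.6 TPM, *Cacng3* 144 ± 17.8 TPM and *Cacng8*, the TARP of the hippocampus, 67 ± 5.19 TPM, and *Gsg1l* was lowest with 19.9 ± 2.82 TPM.

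NMDA receptor transcripts were lower and less even. *Grin1*, the obligatory subunit, had 181, 182 and 146 TPM, with 13.5% of its exon bases overlapping a gene on the other strand. *Grin2d*, of interneurons and early development, had 17.4 ± 2.43 TPM, *Grin3a* 17.5 ± 1.6 TPM, *Grin2c*, an astrocyte and cerebellar form, 2.62 ± 0.321 TPM and *Grin3b* 0.456 ± 0.0623 TPM. The list summed to 396, 388 and 308 TPM, and 5 of the 6 genes that passed were lowest in replicate 3 (background 38.6%). The kainate receptor gene *Grik5*, a high-affinity subunit, held 64% ± 0.684 of the kainate TPM with 210.02 ± 9.86 TPM. *Grik3* had 55.9 ± 3.8 TPM, *Grik2* 19.7 ± 1.51 TPM and the auxiliary protein *Neto2* 55.1 ± 1.06 TPM. Metabotropic receptors were led by *Grm5* with 88.3 ± 2.38 and *Grm7* with 83.2 ± 2.66 TPM, one postsynaptic and the other at release sites. *Grm3*, which astrocytes also express, had 48.7 ± 7.64 TPM, *Grm2* 40.4 ± 3.61 TPM, *Grm4* 35.9 ± 4.18 TPM and *Grm8* 2.92 ± 0.846 TPM. Of the 7 genes of this list 6 were lowest in replicate 3 (background 38.6%).

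**Figure D3:**
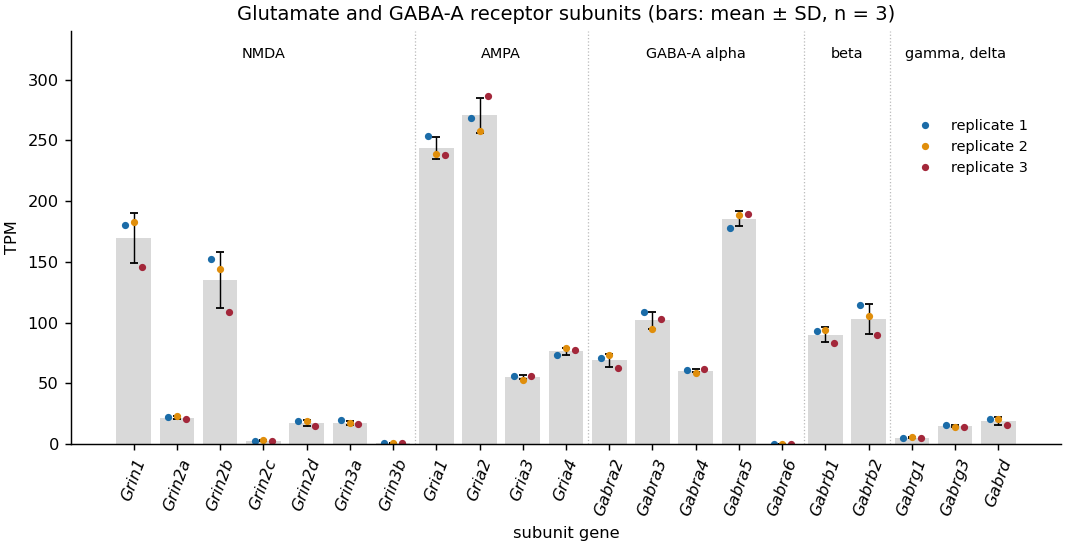
TPM of 21 subunit genes of NMDA, AMPA and GABA-A receptors in shCtrl replicates 1 (blue), 2 (orange) and 3 (red), with bars for the mean and error bars for the SD (n = 3). Of the genes plotted, *Gria2* and *Gria1* are the highest, and for *Grin2b* the points of replicate 3 at 109 TPM and replicate 1 at 152 TPM lie farther apart than for the AMPA subunits.

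GABA-A receptors had a composition of their own. Among alpha subunits *Gabra5*, of extrasynaptic receptors in the hippocampus and deep cortex, was highest with 178, 189 and 189 TPM in replicates 1, 2 and 3. *Gabra3* had 108, 94.3 and 103 TPM, *Gabra2* 68.7 ± 5.28 TPM and *Gabra4* 60.3 ± 1.36 TPM, each below *Gabra5* in each library. *Gabra6*, of cerebellar granule cells, had no read. The beta subunits *Gabrb2* and *Gabrb1* had 103 ± 12.5 and 90.03 ± 6.04 TPM, and the gamma subunits *Gabrg3* and *Gabrg1* 14.6 ± 0.963 and 5.06 ± 0.207 TPM. *Gabrd*, the delta subunit of tonic inhibition, had 18.7 ± 3.06 TPM, *Gabrq* 11.6 ± 2.64 TPM and *Gabre* 2.17 ± 1.1 TPM, and *Gabrp* had no read. For GABA-B receptors, *Gabbr1* had 388, 366 and 323 TPM in replicates 1, 2 and 3. The second subunit, *Gabbr2*, was lower in each library, with 215, 212 and 167 TPM. Their auxiliary subunits *Kctd16*, *Kctd12* and *Kctd8* had 42.1 ± 6.7, 33.7 ± 2.46 and 2.58 ± 0.526 TPM. All 5 genes of the GABA-B list were highest in replicate 1 (background 33.2%).

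The presynaptic machinery was abundant. Of 21 synaptic vesicle genes 15 were at 100 TPM or more, and they summed to 8657, 8203 and 7206 TPM. *Vamp2*, the vesicular SNARE protein, had 1533 ± 111 TPM, the GTPase *Rab3a* 687 ± 46.6 TPM and the tetraspan protein *Syngr1* 649 ± 83 TPM. *Syn1*, synapsin I, had 713, 665 and 551 TPM in replicates 1, 2 and 3, and *Syp*, synaptophysin, 581, 548 and 469 TPM. Both were lowest in replicate 3, as were 17 of the 21 genes (background 38.6%). *Sv2a* held 66% ± 1.83 of the SV2 TPM and *Sv2c* 4.74% ± 0.439, and *Syt2* was lowest. In the list of exocytosis and active zone genes, 20 of 21 were at 10 TPM or more. The SNARE *Snap25* had 581 ± 19.9 TPM and the complexin *Cplx2* 529 ± 20.6 TPM. *Bsn*, encoding Bassoon, had 205 ± 24.5 TPM, *Rims1* 113 ± 5.27 TPM and *Unc13c*, a Munc13 of the cerebellum, 1.27 ± 0.080 TPM. Lowest in replicate 3 were 16 of the 21 (background 38.6%), and none differed by more than 1.5-fold (background 16.8%, and 3.88% at 10 TPM or more).

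All 22 genes of the postsynaptic scaffold were at 10 TPM or more. *Camk2a* was followed by *Nlgn2*, the neuroligin of inhibitory synapses, with 387 ± 39.6 TPM and *Camk2b* with 372 ± 13.5 TPM. *Dlg4*, which encodes PSD95, held 42.4% ± 0.567 of the TPM of 4 related scaffolds with 285, 266 and 249.9 TPM in replicates 1, 2 and 3, and *Dlg1*, which encodes SAP97, held 10.8% ± 0.694. *Shank1* was the highest of the Shank genes with 189 ± 6.23 TPM, against 139.9 ± 11.7 TPM for *Shank2* and 124 ± 4.12 TPM for *Shank3*. *Gphn*, gephyrin of inhibitory synapses, had 97.7 ± 9.98 TPM, and *Homer3* was lowest with 13.5 ± 0.899 TPM. The share of *Dlg4* was 42.4, 41.8 and 43% in replicates 1, 2 and 3, although its level was lowest in replicate 3.

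Voltage-gated channels are built of pore-forming alpha subunits and auxiliary subunits. Of the auxiliary subunits of sodium channels, *Scn3b* had 201 ± 20.2 TPM and *Scn2b* 119 ± 12.4 TPM. The highest alpha subunit, *Scn2a*, with 114 ± 11.8 TPM, did not differ from *Scn2b* beyond the spread, and *Scn8a* had 71.7 ± 2.3 TPM. *Scn1a* had 42.7 ± 3.26 TPM, *Scn3a* 34.9 ± 1.96 TPM, *Scn4b* 1.12 ± 0.0925 TPM and *Scn9a*, of sensory neurons, 0.368 ± 0.0891 TPM. Among calcium channels the beta subunits *Cacnb3* and *Cacnb1* had 143 ± 9.23 and 138 ± 19.4 TPM. The P/Q-type *Cacna1a* and N-type *Cacna1b*, which trigger transmitter release, had 95 ± 0.548 and 94.6 ± 3.28 TPM, and did not differ beyond their spread. The T-type *Cacna1i* had 87.7 ± 12.8 TPM and *Cacna1g* 66.9 ± 1.96 TPM, the R-type *Cacna1e* 57.3 ± 3.47 TPM, and the L-type *Cacna1c* and *Cacna1d* 31.2 ± 2.81 and 24.1 ± 0.529 TPM. *Cacnb2* was lowest with 11.2 ± 0.939 TPM. Of the 15 calcium channel genes 12 were highest in replicate 1 (background 33.2%) and 12 were lowest in replicate 3 (background 38.6%).

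Of 25 potassium and HCN channel genes, 24 were at 10 TPM or more. *Kcnq3*, of the M-current, had 116, 116 and 95.4 TPM in replicates 1, 2 and 3, lowest in replicate 3. *Kcnma1*, the large calcium-activated channel, had 97.4 ± 10.9 TPM and the leak channel *Kcnk9* 96.3 ± 3.38 TPM. Of the HCN channels, which open on hyperpolarization, *Hcn2* had 94.2 ± 6.11 TPM and *Hcn3* 64.3 ± 3.39 TPM. *Kcna1* and *Kcna2* of the axon had 39.3 ± 3.79 and 52.8 ± 2.79 TPM. The Kv3 genes *Kcnc1* and *Kcnc2* of fast-spiking cells had 40.8 ± 3.75 and 37.8 ± 0.925 TPM. *Kcnj6* was lowest with 8.29 ± 0.38 TPM. At the axon initial segment, where *Ank3*, ankyrin G, had 58.6 ± 5.998 TPM, the adhesion molecule *Nrcam* was highest of 12 genes with 161 ± 9.24 TPM and *Fgf14* lowest with 26.5 ± 1.55 TPM.

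Cytoskeletal genes were among the most abundant. *Tuba1a* made up 90.1% ± 0.386 of the alpha tubulin TPM. Since 72.9% of its 50-base stretches occur in other genes, and 73.8% of those of *Tuba1b*, which was counted at 83.5 ± 7.07 TPM, the split between these copies is uncertain. *Tubb2a* had 1521 ± 88.3 TPM and *Tubb2b* 867 ± 37.9 TPM, with 49.6% and 39.3% of their stretches shared. *Tubb3* had 639, 763 and 594 TPM in replicates 1, 2 and 3 and *Tubb5* 638 ± 57.4 TPM. *Tuba1c* was lowest with 1.75 ± 0.569 TPM. Of the neurofilament triplet, *Nefl* held 75.3% ± 0.482, *Nefm* 18.1% ± 0.486 and *Nefh* 6.54% ± 0.294, so that the light chain prevailed. A share of 32.8% of the *Nefl* exon bases is overlapped from the opposite strand. *Ina*, alpha-internexin, the neurofilament of young neurons, had 174 ± 20.5 TPM, more than the light chain in each library, with 14.1% of its exon bases overlapping a gene on the other strand, and *Des*, of muscle, had 0.175 ± 0.167 TPM. Among small actin-binding proteins, *Tmsb4x* had 1715 ± 127 TPM beside 1655 ± 147 TPM for *Actb* and 917 ± 9.99 TPM for *Tmsb10*.

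Activity-regulated genes were transcribed in every library. All 20 immediate early genes were at 10 TPM or more and 6 at 100 TPM or more, and they summed to 1771, 1712 and 1673 TPM in replicates 1, 2 and 3. *Egr1* had 189, 211 and 195 TPM, and *Nptx2*, a secreted pentraxin of excitatory synapses, had 217, 220.04 and 151 TPM. *Nptx2* was above *Egr1* in replicates 1 and 2 and below it in replicate 3, so that their order is not settled. *Fos* had 118, 123 and 123 TPM, *Npas4* 64, 71.5 and 87.6 TPM and *Arc* 52, 47.2 and 49.8 TPM. The levels of *Fos* and *Arc* were close between libraries, with CVs of 2.19% and 4.85%, whereas *Npas4*, which responds to calcium entry in neurons, was highest in replicate 3, with a CV of 16.2%. *Jund* had 151 ± 3.9 TPM, with 52.6% of its exon bases overlapping a gene on the other strand, *Egr3* 149 ± 13.1 TPM, *Nr4a1* 123 ± 14.6 TPM, *Jun* 88.2 ± 3.44 TPM and *Junb* 86.1 ± 7.19 TPM. *Fosl2* had 74.5 ± 11.5 TPM, *Nr4a3* 72.4 ± 11.5 TPM, *Homer1* 60.6 ± 4.44 TPM, *Bdnf* 57.7 ± 7.31 TPM and *Egr4* 57 ± 7.997 TPM. *Ier2*, *Dusp1* and *Nr4a2* had 42.5 ± 6.32, 41.7 ± 2.86 and 36.7 ± 2.35 TPM, and *Egr2* was lowest with 13 ± 1.24 TPM. Only *Fosb*, with 33, 23.1 and 20.7 TPM, differed by more than 1.5-fold, 1 of 20 genes against a background of 3.88% at this level. The median CV of the list was 9.14%, beside 7.32% for all genes of 10 TPM or more.

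Peptides and growth factors were plentiful. Genes of the secretory granule led the list of 22, with *Cpe* followed by *Scg2* at 1007 ± 145 TPM and *Vgf* at 996 ± 159 TPM. *Adcyap1*, the peptide PACAP, had 156, 141 and 96.2 TPM and differed by more than 1.5-fold, whereas *Penk* had 30.4 ± 4.2 TPM. *Tac2* was lowest with 6.44 ± 1.45 TPM. Among neurotrophins and their receptors *Ntrk2*, the receptor of BDNF, had 247, 246 and 245 TPM, a CV of 0.236%. *Bdnf* had 63.6, 59.9 and 49.5 TPM, *Sort1* 225 ± 12.6 TPM and *Ntrk3* 44 ± 2.64 TPM. *Sorcs1* had 22.7 ± 2.54 TPM, *Ntf3* 5.4 ± 2.27 TPM, *Ngfr* 3.78 ± 1.3 TPM and *Ntf5* 0.0722 ± 0.0741 TPM. The culture thus held transcripts of both *Bdnf* and *Ntrk2*. Counts per gene do not separate the forms of *Ntrk2* or the cells that make them.

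*Pla2g4e* (ENSMUSG00000050211, on chromosome 2, bases 119996893 to 120075816 of GRCm39, minus strand), the target of the knockdown in the other samples, encodes a calcium-dependent N-acyltransferase that makes N-acyl-phosphatidylethanolamines. In the shCtrl libraries it had 783, 697 and 797 reads, or 22.1, 20.8 and 20.8 TPM in replicates 1, 2 and 3, a mean of 21.2 ± 0.754 TPM (SD, n = 3). It lay above 49% of the 15687 genes, near their median, and its CV of 3.55% was close to the 3.63% that counting alone gives. No other gene of the group IV family reached 10 TPM, and *Pla2g4e* held 84% ± 0.603 of the TPM of 6 genes. *Pla2g4b* and *Pla2g4d*, its neighbours on chromosome 2, had 1.15 ± 0.138 and 1.14 ± 0.164 TPM. *Pla2g4b* is uncertain, since 66.5% of its exon sequence lies within another gene on the same strand. *Pla2g4a*, the cytosolic phospholipase that releases arachidonic acid, had 20, 34 and 19 reads, or 0.615, 1.11 and 0.539 TPM. *Pla2g4c* had 28, 12 and 11 reads, or 1.47, 0.666 and 0.533 TPM, and *Pla2g4f* 0, 2 and 4 reads.

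The pathway around the enzyme was largely expressed. The 18 genes of N-acylethanolamine and endocannabinoid metabolism summed to 1349, 1341 and 1292 TPM. *Gde1*, a phosphodiesterase that releases N-acylethanolamines, had 394 ± 9.83 TPM, *Abhd4*, which deacylates their precursors, 262 ± 15 TPM and *Gdpd1* 112 ± 12.2 TPM. *Napepld*, the phospholipase D of the same step, had 10.03, 8.62 and 9.86 TPM. *Faah*, which degrades N-acylethanolamines, had 42.9, 44.8 and 45.2 TPM, and *Naaa*, its lysosomal counterpart, 19.6, 21.9 and 31.7 TPM, the latter differing by more than 1.5-fold. For 2-arachidonoylglycerol, *Dagla* had 74.2 ± 4.41 TPM and *Mgll* 58.4 ± 1.55 TPM. The receptor *Cnr1* had 241, 219 and 182 TPM, while *Cnr2*, of immune cells, had no read, and *Ppara*, the nuclear receptor of N-acylethanolamines, had 1.28 ± 0.502 TPM.

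Metabolic genes were abundant. All but 1 of 19 glycolytic genes were at 10 TPM or more, led by *Aldoa* with 1260.4 ± 115 TPM, *Gapdh* with 688 ± 81 TPM and *Ldha* with 678 ± 59.7 TPM. *Hk2* was lowest with 5.62 ± 1.89 TPM. Of the 19, 15 were highest in replicate 1 (background 33.2%) and 14 were lowest in replicate 3 (background 38.6%). In the stress list *Atf4*, the factor of the integrated stress response, had 282 ± 13.6 TPM, *Hspa5*, the chaperone of the endoplasmic reticulum, 232 ± 10.9 TPM and *Asns* 214 ± 16.6 TPM. *Hmox1*, haem oxygenase, had 149, 105 and 168 TPM and differed by more than 1.5-fold. The inducible heat shock genes *Hspa1a* and *Hspa1b* had 2.26 ± 0.772 and 2.14 ± 0.628 TPM. Among genes of sterol and fatty acid synthesis, the highest were the desaturase *Scd2* with 1344 ± 74.6 TPM and *Hmgcs1* with 471 ± 33.5 TPM. Targets of p53 were led by *Cdkn1a* with 233, 209.8 and 159 TPM, *Ccng1* with 197 ± 5.92 and *Plk2* with 188 ± 15.7 TPM, and *Gdf15* had 2.12 ± 0.629 TPM. The order of the first 3 changed between libraries.

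Interferon-induced genes, which a viral vector can raise, were low in these transduced cultures. Of 18 genes 11 passed the minimum and 3 reached 10 TPM, and the list summed to 79.6, 82.1 and 92.8 TPM. *Ifit2* had 20.8 ± 2.25 TPM, the transcription factor *Stat2* 18 ± 1.44 TPM and *Ifi27* 16.4 ± 1.57 TPM. *Isg15* had 2.12 ± 0.386 TPM, *Irf7* 0.271 ± 0.0985 TPM, *Oas1a* 0.0642 ± 0.111 TPM and *Usp18* 0.0434 ± 0.0751 TPM. Of the 11 genes 8 were highest in replicate 3 (background 34.9%). No untransduced culture was measured beside them.

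Neuronal RNA-binding proteins were abundant. *Celf4*, *Elavl3* and *Rbfox2* were highest with 223 ± 15.4, 222 ± 24.5 and 209.6 ± 17.9 TPM, and *Khdrbs2* was lowest with 2.49 ± 0.266 TPM. *Ptbp2*, the splicing repressor of young neurons, stood above *Ptbp1*, that of progenitors and glia, in each library, by a ratio of 1.74, 1.88 and 1.65 in replicates 1, 2 and 3. Replication-independent histone genes led their list, with 261 ± 13.3 TPM for *H3f3b*, 111 ± 11.1 TPM for *H1f0* and 102 ± 6.68 TPM for *H2afz*. The replication-dependent *Hist1h3a*, whose messenger RNA carries no poly(A) tail, had 0.13 ± 0.225 TPM.

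Both X- and Y-linked sex markers were present in each library. *Xist*, expressed from the inactive X chromosome of females, had 80.4, 95.2 and 99.4 TPM in replicates 1, 2 and 3. The Y-linked *Ddx3y* had 59.4, 57.1 and 52.9 TPM, *Eif2s3y* 69.5, 69.4 and 83.5 TPM, *Kdm5d* 13.4, 13 and 13.6 TPM and *Uty* 5.999, 6.22 and 7.21 TPM. *Xist* was highest in replicate 3 and lowest in replicate 1, and *Ddx3y* was highest in replicate 1 and lowest in replicate 3, but *Eif2s3y*, *Kdm5d* and *Uty* were highest in replicate 3, so that the Y-linked genes had no common order. No marker differed by more than 1.5-fold (background 16.8%, and 3.88% at 10 TPM or more).

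The libraries differed little for most genes. The median CV over the 15687 genes was 9.33%, with quartiles of 5.47% and 16.1%, where counting alone gives a median of 4.45%. A CV below that of counting was found in 19.5% of the genes. edgeR's common biological coefficient of variation, which leaves out counting error, was 9.58%. Spread fell with level, from a median CV of 23.6% at 1 to 3 TPM to 8.89% at 10 to 30 TPM and 6.64% at 30 to 100 TPM, and it did not fall further at higher levels, where it was 6.65% at 100 to 300 TPM and 8.75% at 1000 TPM and over. Between its highest and its lowest library 16.8% of the genes (2630) differed by more than 1.5-fold and 805 by more than 2-fold. Among the 10565 of these genes with a mean of 10 TPM or more, 410 (3.88%) differed by more than 1.5-fold and 51 by more than 2-fold. Nuclear noncoding genes had a median CV of 20.4% and nuclear protein-coding genes 8.55%, but the former were also lower, with a median of 4.08 against 27.2 TPM. The Pearson correlation of log2 TPM across genes was 0.989 between replicates 1 and 2, 0.987 between 1 and 3 and 0.988 between 2 and 3, and genes are not independent replicates. A chi-square statistic averaged over genes was 6.12 to 16.1 for the 3 pairs, and a pair that differed by counting alone would give about 1. That value and the counting CVs take each read as an independent count. If both reads of a pair were counted, they would be too low, which was not tested.

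**Figure D4:**
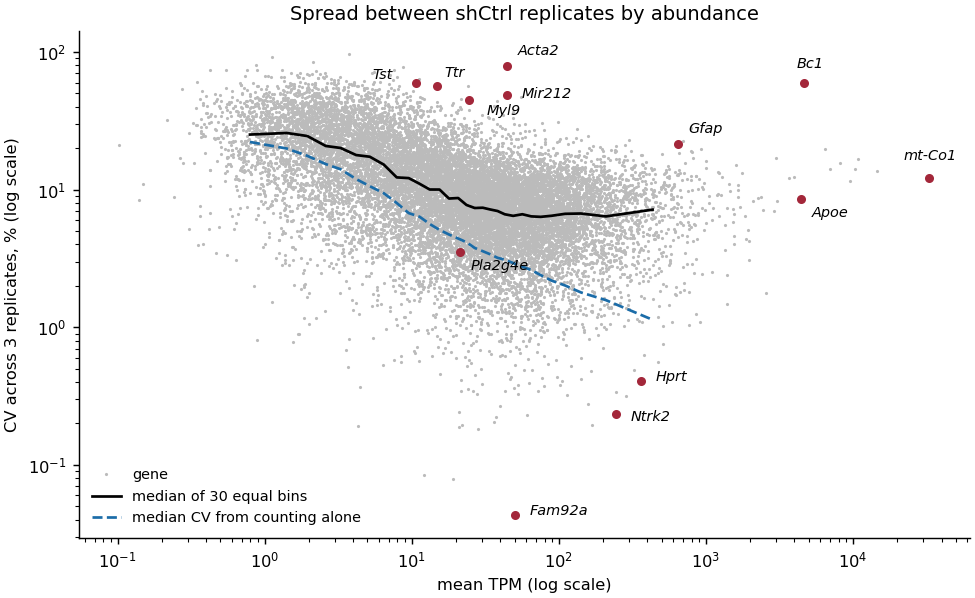
CV across the 3 shCtrl replicates (log scale, %) against mean TPM (log scale) for the 15687 genes with 10 or more reads in each (grey), with the median CV of 30 bins of equal gene number (black line), the median CV that counting alone gives (blue dashed line) and named genes in red. Most genes above 30 TPM lie near 7%, and *Acta2* and *Bc1* lie far above, at 78.8% and 59.98%.

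By their median CV, genes used as references were not more even than all genes of 10 TPM or more. Of 20, all at 10 TPM or more, 8 had a CV below the median of 7.32% for those genes, the median CV of the list was 8.06%, and none differed by more than 1.5-fold (background 3.88%). *Hprt* was the most even, with 361, 361 and 358 TPM in replicates 1, 2 and 3, a CV of 0.408%. *Rplp0*, which encodes the protein 36B4 used as qPCR reference in the study, had 739.6, 763 and 852 TPM, a CV of 7.52%, with 41.8% of its 50-base stretches shared with other genes. *Gapdh* had 767, 692 and 605 TPM, a CV of 11.8%, and *Actb* 1581, 1824 and 1559 TPM, a CV of 8.9%. *Hsp90ab1* had 1847 ± 119 TPM, *Ywhaz* 561 ± 60.8 TPM, *Ubb* 508 ± 17.9 TPM, *Sdha* 312 ± 14.7 TPM and *B2m* 224 ± 13.3 TPM. *Ppia* had 224 ± 12.8 TPM, *Pgk1* 222 ± 20.3 TPM, *Rps18* 197 ± 20.5 TPM, *Polr2a* 102 ± 11.5 TPM and *Tfrc* 81.3 ± 6.44 TPM. *Rpl13a* had 26 ± 3.84 TPM. *Tbp* and *Gusb*, the lowest, had 11.9 ± 0.639 and 10.7 ± 0.582 TPM, with CVs of 5.35% and 5.42%. The CVs of *Gapdh* and *Actb* were above those of *Hprt*, *Tbp* and *Gusb*, but a CV from 3 libraries is imprecise, and these differences were not tested. Counting alone gives a median CV of 1.14% at 300 to 1000 TPM, the level of *Hprt*. At 10 to 30 TPM, the level of *Tbp* and *Gusb*, it gives 4.81%.

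Among the 10 most even genes of 10 TPM or more were *Fam92a*, *Pomt1*, *Slc16a13*, *Suv39h1*, *Slc39a13*, *Wdr3*, *Pcbp4*, *Abcb8* and *Plekha6*, with CVs from 0.0434% to 0.221%. *Fam92a* had 50.7, 50.7 and 50.7 TPM and *Pcbp4*, an RNA-binding protein, 168, 168 and 168 TPM. For all 10 the CV was below the CV from counting, 2.87% for *Fam92a*, so that their order cannot be told from counting error.

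The 10 most variable genes of 10 TPM or more fell into several kinds. *Acta2* (chromosome 19, bases 34218490 to 34232990 of GRCm39, minus strand) was first, with 12.5, 38.9 and 81.9 TPM on 140, 411 and 991 reads, and replicate 3 held 6.54 times the level of replicate 1. *1500015O10Rik* had 3.92, 11.5 and 18.3 TPM in the same order. *Tst*, a mitochondrial sulfurtransferase, had 5.96, 8.08 and 18 TPM, also highest in replicate 3, and *Ttr* was lowest in replicate 1. *Bc1* and *Mir212* were highest in replicate 1. Those left were short or poorly named genes on few reads: ENSMUSG00002076161 with 39.2, 12.6 and 20.8 TPM, *Gm15835* with 7.73, 16.3 and 6.63 TPM, *2900093K20Rik* with 6.24, 16.9 and 10.9 TPM and *Gm24966* with 34.8, 47.4 and 85 TPM. Of the 410 genes of 10 TPM or more over 1.5-fold, 198 were highest in replicate 3, 122 in replicate 2 and 90 in replicate 1, and 227 were lowest in replicate 1.

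Other genes of contractile cells are given beside *Acta2* and were picked with their values known. *Myl9*, the regulatory light chain of smooth muscle myosin, had 15.9, 20.7 and 36.7 TPM in replicates 1, 2 and 3. The calponin *Cnn2* had 7.19, 9.97 and 15.9 TPM. *Cnn1*, the smooth muscle calponin, had 1.65, 7.44 and 7.63 TPM. *Tagln*, transgelin, had 2.27, 2.93 and 6.48 TPM, with 67.9% of its exon bases overlapping a gene on the other strand. All 4 were lowest in replicate 1 and highest in replicate 3. *Cnn3*, a calponin of many cell types, had 244, 326 and 358 TPM, below 1.5-fold. Smooth muscle genes of this kind are known targets of serum response factor, which binds the CArG box. Windows from 250 bases before to 50 bases after the start of transcription (RefSeq, GRCm38.p6) were searched for an exact CArG box on both strands, and 535 of 32851 windows of all genes (1.63%) held one. *Myl9* and *Cnn2* each held 1, starting at positions −161 and −56 from it, and these windows are shown with the box in capitals, 5′ to 3′ on the plus strand, at chr2:156775214-156775513 and chr10:79988350-79988649.
*Myl9*: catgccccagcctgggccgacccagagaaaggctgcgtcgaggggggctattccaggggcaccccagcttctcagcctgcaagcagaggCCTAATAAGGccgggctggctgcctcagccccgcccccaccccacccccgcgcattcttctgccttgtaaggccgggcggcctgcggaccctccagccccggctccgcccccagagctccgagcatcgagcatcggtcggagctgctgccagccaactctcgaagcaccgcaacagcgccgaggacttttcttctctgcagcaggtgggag
*Cnn2*: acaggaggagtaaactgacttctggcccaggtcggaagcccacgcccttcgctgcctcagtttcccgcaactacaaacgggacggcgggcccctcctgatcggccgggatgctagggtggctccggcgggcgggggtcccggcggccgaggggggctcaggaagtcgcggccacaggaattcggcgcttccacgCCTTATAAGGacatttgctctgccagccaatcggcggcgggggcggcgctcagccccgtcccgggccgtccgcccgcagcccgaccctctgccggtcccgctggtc
No exact match was found in the windows of *Acta2* and *Cnn1*. Of these 5 genes 4 were matched to a window, all but *Tagln*. A match of letters is not a site, and its part in the spread was not tested.

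Beyond single genes, the medians of whole lists also differed between libraries, in more than one order. To follow this, each gene's log2 TPM was set against its own mean over the 3 libraries, and the median of these deviations was taken over a list. For all 15687 genes the medians were −0.0029, 0.016 and −0.0049 in replicates 1, 2 and 3. For astrocyte genes they were −0.16, −0.0099 and 0.19, for mitochondrially encoded genes −0.17, −0.051 and 0.21, and for the 9 microglial genes −0.17, −0.25 and 0.61, all highest in replicate 3. For synaptic vesicle genes they were 0.10, 0.012 and −0.14, for glutamatergic markers 0.098, 0.072 and −0.13, for NMDA receptor genes 0.11, 0.11 and −0.15 and for glycolytic genes 0.14, 0.0085 and −0.15, all lowest in replicate 3. Genes of GABAergic neurons (0.024, −0.050 and −0.0049) and AMPA receptors (0.0045, −0.039 and 0.024) deviated less in replicates 1 and 3. Cell cycle genes had another order, −0.30, 0.23 and 0.043, highest in replicate 2. The astrocyte list and the lists of glutamatergic and presynaptic genes thus lay on opposite sides of 0 in replicates 1 and 3.

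**Figure D5:**
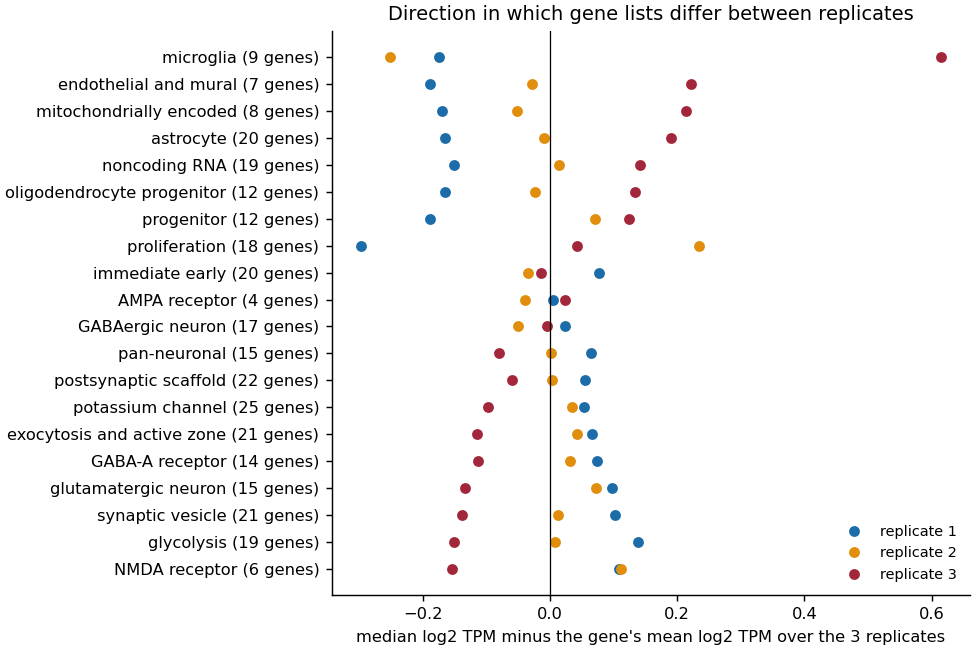
Median, over the genes of each of 20 lists with 10 or more reads in each library, of log2 TPM minus the gene's own mean log2 TPM, for shCtrl replicates 1 (blue), 2 (orange) and 3 (red). In replicate 3 the lists of microglia, astrocytes, progenitors and mitochondrially encoded genes lie to the right of 0 and those of presynaptic, glutamatergic and glycolytic genes to the left, and in replicate 1 the sides are reversed.

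Gene length and the ribosomal proteins moved in the same order. In the fifth of genes with the shortest exon length, up to 2301 bases, the median deviations were −0.049, 0.0048 and 0.052 in replicates 1, 2 and 3, and in the fifth with the longest, from 7441 bases, they were 0.015, 0.023 and −0.037. The 80 cytosolic ribosomal protein genes, which are short, had medians of −0.099, −0.026 and 0.11. The part of gene length and of library quality in the shifts of the lists was not tested. Scaled with edgeR's TMM factors in place of TPM, the astrocyte medians were −0.17, −0.025 and 0.21 and the synaptic vesicle medians 0.10, −0.0025 and −0.12, with the same libraries highest and lowest.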

How the data were processed

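Gene counts came from 3 shCtrl libraries of polyadenylated RNA. Per the file headers and the submitters' processing notes, the authors aligned reads with STAR 2.7.0d and deposited raw counts per gene from featureCounts 1.6.0 on GENCODE vM28 (GRCm39), summed over exons, with no strand option set and without reads mapping to several places. The study's methods name another release, vM18. The 3 knockdown libraries were not used here. Gene names came from GENCODE vM21 by gene identifier, and 3276 of 55357 genes had no match.

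TPM was computed from the counts and exon lengths with Python 3.11.15 and pandas 2.3.3. The common biological coefficient of variation was estimated with edgeR 4.0.16 (R 4.3.3), with TMM factors and an intercept only, and with DESeq2 1.42.0 as an alternative. No test between groups was run. Genes with 10 or more reads in each library entered the measures of spread. Depth was 20387986 to 22561667 reads, and counting error alone is given as a counting CV, with each read taken as an independent count.

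The text names the 20 highest genes, the 5 highest noncoding genes, the 10 largest and 10 smallest CVs among genes of 10 TPM or more, the top 3 and the lowest of each of 52 lists, all members of receptor and channel families, and the reference, sex marker, immediate early and group IV phospholipase genes. Some genes named by this rule are not reported here. Other genes were added as defining markers with their values known. Members and lists were chosen with earlier results of these data known. Of 678 listed symbols, 677 were found. A gene is given as uncertain where at least 10% of its exon bases overlap another gene or of its 50-base stretches occur in another. Alternatives left out each replicate and changed the read minimum, length correction and mitochondrial genes.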

Additional observations from a re-analysis of the deposited data

How the results depend on the processing

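Of 63 alternative settings over 12 results, 47 kept the value within its limit and 16 moved it further. The limit was 1.5 times for a number of genes, the exact binomial interval for a share of genes, and 1 SD over the libraries, or over the values with 1 library left out, for the rest. The limit for numbers of genes is wider than the spread between libraries. The median CV of 9.33% ranged from 6.49% to 9.06% when 1 library was left out, was 12.1% with 1 or more reads in each library and 7.32% at a mean of 10 TPM or more. The share of genes over 1.5-fold, 16.8%, ranged from 8.80% to 10.2% without 1 library, which leaves 2 libraries to differ, and was 33.4% with 1 or more reads and 3.88% at 10 TPM or more. The biological coefficient of variation was 6.75% from DESeq2's gene-wise dispersion against 9.58% from edgeR. With reads not divided by length, the VGLUT to VGAT ratio was 13.0 in place of 6.76, the *Grin2b* share 86.5% in place of 76.2% and the *Slc12a5* to *Slc12a2* ratio 4.19 in place of 6.14. With mitochondrially encoded genes left out, *Pla2g4e* was at 23.8 TPM, the astrocyte sum at 11349 TPM and the immediate early sum at 1928 TPM. The number of most abundant genes that hold 50% of TPM was 1284 without mitochondrially encoded genes in place of 961. The number of genes was 15687 with 10 reads in each library, 20384 with 1 read in each and 20166 with 6 reads in at least 1. No paired analysis was possible because only 1 group was described and no result came from a test. Below about 10 TPM, counting error made up much of the spread.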
